A study of Mus musculus with 12 samples.

Results

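The 45 genes described here form the machinery that licenses and copies DNA and divides the cell, and they were chosen as a list of gene symbols by function, from origin licensing to mitotic exit. All 45 were among the 17523 genes of the table, and all 45 passed the filter on low values, as did 15587 genes in all. RNA had been sequenced from CD4+ T cells of the spleens of unchallenged Gr/fr mice, a C57BL/6 GM-CSF reporter and fate reporter line. In every group the Csf2 allele also drove iCre and blue fluorescent protein, and excision by iCre of a stop cassette turned on eYFP from Rosa26, so that YFP marked cells that made GM-CSF at the time or had made it earlier. Naïve cells (CD44-) and effector memory cells (TEM, CD44hi) were each split by sorting for YFP, giving 4 groups of 3 libraries. YFP+ naïve cells therefore carry a past of Cre activity although they bear the surface phenotype of naïve cells, and regulatory T cells were not removed by either gate. Values are normalized counts, that is, reads divided by the size factor of the library, and each fold change is a difference on the log2(normalized count + 1) scale followed by its standard error (SE). Genes are named as called when limma gave an adjusted p (Benjamini-Hochberg over all 15587 genes) of at most 0.05, whatever the fold change, and every rise or fall below is a log2 fold change.

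Most CD4+ T cells in an unchallenged spleen are out of the cell cycle, and a memory compartment holds a minority of cells that divide. Before DNA is copied, Cdc6 and Cdt1 load the helicase made of the Mcm proteins on replication origins, and E2F transcription factors switch on licensing and nucleotide genes once the retinoblastoma proteins are phosphorylated by cyclin-dependent kinases. Genes needed for mitosis are switched on later, by a complex with Mybl2 and Foxm1 that reads a short promoter word known as the cell cycle homology region (CHR), often beside CCAAT boxes bound by the factor NF-Y. In resting cells the same CHR words are bound by a repressor complex that holds these genes off.

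The promoter windows below show these words in 6 members, the 3 with the largest log2 fold change between TEM and naïve YFP- cells for each of E2F and CHR. They were read from RefSeq promoter sequence on GRCm38.p6, which had an entry for 36 of the 45 genes in 38 windows, each from 250 bases before to 50 bases after a start site. The lines give 80 bases 5′ to 3′ on the strand of the gene, and capitals mark each match. In Cdk1, Cdc6 and Mcm6 the match is an E2F word, TTTCCCGC, TTTCGCGC, TTTGCCGC or TTTGGCGC on either strand.
Cdk1, chr10:69353000-69353079, minus strand: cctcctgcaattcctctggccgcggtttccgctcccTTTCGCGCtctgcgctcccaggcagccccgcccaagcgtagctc
Cdc6, chr11:98907977-98908056, plus strand: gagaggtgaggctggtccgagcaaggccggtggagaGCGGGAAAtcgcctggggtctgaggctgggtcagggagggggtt
Mcm6, chr1:128359709-128359788, minus strand: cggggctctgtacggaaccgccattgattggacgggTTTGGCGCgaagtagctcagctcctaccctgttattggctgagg
In Mki67, Bub1 and Cenpf the capitals mark a CHR word, TTTGAA or TTCGAA on either strand, the latter being the same on both strands. None of these words contains another.
Mki67, chr7:135716435-135716514, minus strand: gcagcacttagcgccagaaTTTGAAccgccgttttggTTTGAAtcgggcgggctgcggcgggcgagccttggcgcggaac
Bub1, chr2:127831810-127831889, minus strand: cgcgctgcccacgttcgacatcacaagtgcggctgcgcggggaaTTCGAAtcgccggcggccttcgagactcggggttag
Cenpf, chr1:189688042-189688121, minus strand: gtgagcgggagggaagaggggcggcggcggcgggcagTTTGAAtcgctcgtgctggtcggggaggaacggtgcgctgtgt
The words were not spread evenly over the members. An E2F word occurred in 9 of the 38 windows (23.68%), against 2.265% of all 32851 promoters in the table and 3.833% of the promoters of tested genes. Among 14 windows of licensing, helicase, nucleotide and clamp genes 6 held it, and among 10 windows of mitotic kinases, spindle, kinetochore and mitotic exit genes 0 did. The cyclins and their kinases were counted in neither set. Among them was Cdk1, with 1 E2F word and 2 CHR words in its promoter window. A CHR word occurred in 18 of the 38 windows (47.37%), against 19.23% of all promoters and 14.51% of those of tested genes, and it was in 8 of the 10 mitotic windows (80%) and 3 of the 14 replication windows (21.43%). CCAAT, on either strand, was in 30 of the 38 windows (78.95%), against 37.41% of all promoters, and each of the 18 windows with a CHR word also had it. Only 6 of the 38 windows (15.79%) had none of the 3 words, whereas 49.76% of all promoters had none. A match is a description of these letters and not of a bound factor.

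The libraries held between 40974124 and 57822269 reads on genes, and the 45 genes together took 0.0813 to 0.0855% of these reads in naïve libraries and 0.190 to 0.329% in TEM libraries. The sorts were visible in the RNA. The effector memory markers Cd44, Itgb1 and S100a4 summed to 5450 to 6842 in naïve and 91927 to 106413 in TEM libraries. CD4 T cell markers (Cd4, Cd3d, Cd3e, Cd3g, Cd5 and Lck) summed to 153585 to 222116 in every library. YFP+ naïve replicate 2 stood apart in RNA of other cells, with 1958 normalized counts for B and plasma cell markers, 3312 for macrophage and neutrophil markers and 2551 for erythroid markers, against at most 911, 773 and 605 in the other naïve libraries. It was also the highest of its group for 24 of the 45 genes, so results that rest on it are given without it as well.

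In naïve cells the levels of the members ranged widely. They are split here by rank into the 10 highest and the other 35, and the cut was set by number. Per kilobase of exon, Pcna had the highest mean level in YFP- naïve cells (1845 normalized counts per kilobase), followed by Mcm4 (1493) and Hmgb2 (1224), and the 10 most abundant members also included Stmn1, Cdt1, Mcm7, Mcm3, Mcm6, Mcm2 and Mcm5, down to 463. The other 35 members lay between 1.60 (Cenpf, a kinetochore protein) and 236 (E2f2) per kilobase. Licensing and helicase genes alone made up 57.0 to 59.9% of the summed normalized counts of the 45 genes in naïve libraries and 28.0 to 38.1% in TEM libraries. Spindle and kinetochore genes made up 0.775 to 1.35% in naïve and 5.53 to 8.42% in TEM libraries. The naïve cells thus carried helicase and clamp transcripts with few transcripts of the mitotic machinery.

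**Figure D1:**
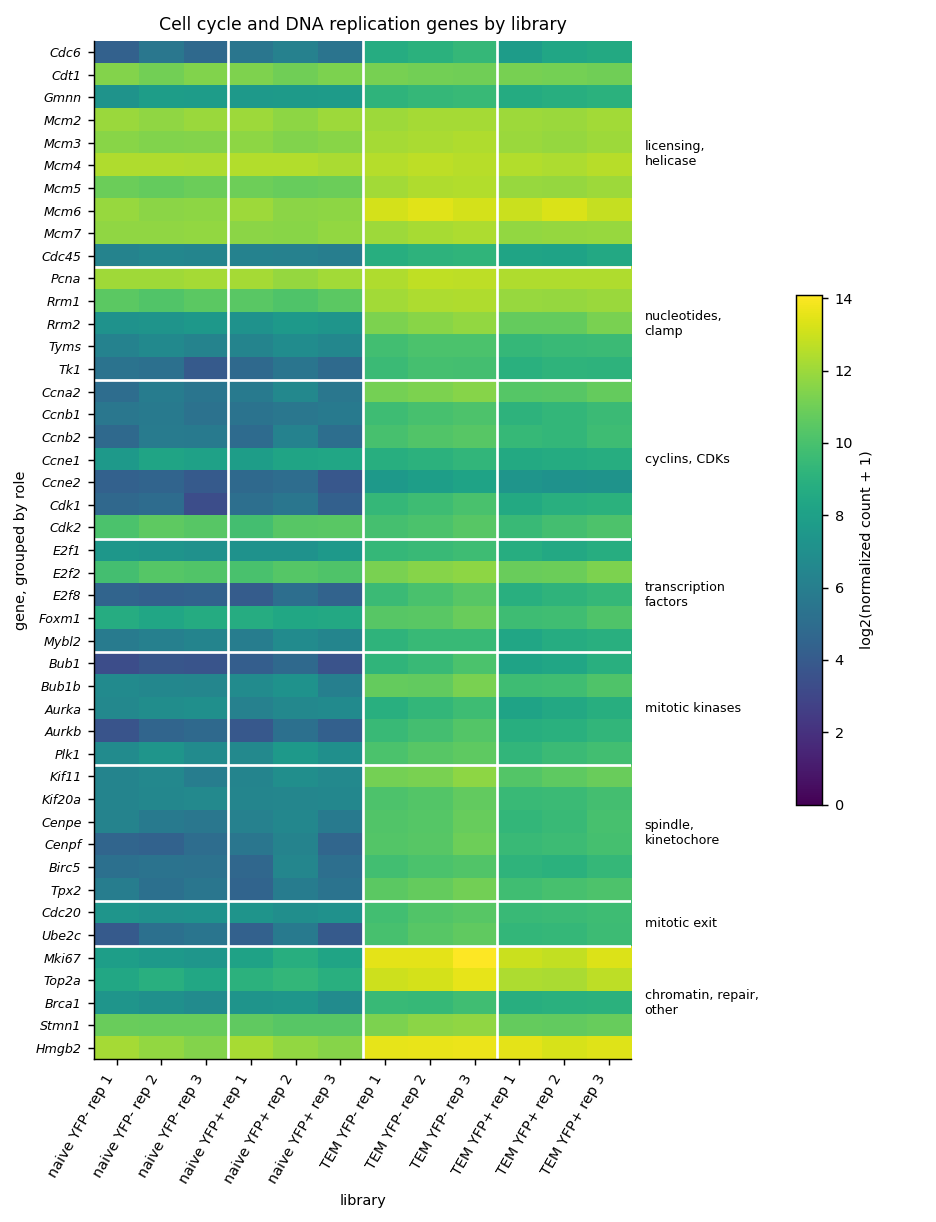
Heat map of log2(normalized count + 1) for the 45 genes (rows, grouped by role) in the 12 libraries (columns, grouped by sort), on a colour scale that starts at 0. Most rows brighten from the 6 naïve to the 6 TEM columns, while Mcm2, Mcm4, Cdt1, Cdk2 and Pcna are nearly even across the map.

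TEM cells had more transcript of nearly every member than naïve cells. In YFP- cells 41 of the 45 genes were called higher in TEM, against 29.9% of all tested genes, and 0 were called lower, against 19.9% of all tested genes (0 also with an unadjusted p of at most 0.05 and with DESeq2, and 1, Cdt1, with edgeR). In YFP+ cells 39 were called higher, against 24.7% of all tested genes, and 0 lower, against 16.7% (again 0 at the unadjusted p and 0 with edgeR or DESeq2). The median log2 fold change of the 45 genes was 3.39 in YFP- and 2.49 in YFP+ cells, where the median over all tested genes was 0.05 and 0.03. For 43 members in YFP- cells and 41 in YFP+ cells the 3 TEM libraries lay entirely above the 3 naïve libraries, against 33.9% and 27.4% of all tested genes. The genes not called were Cdt1, Mcm2, Mcm4 and Cdk2 in both, and also Mcm7 and Stmn1 in YFP+ cells. With the replicate number in the fit 43 genes were called higher in YFP- cells, Mcm2 and Mcm4 among them, against 33% of all tested genes, and 40 in YFP+ cells, Mcm7 among them, against 28.6%. In that fit 1 gene was called lower in each fraction, against 25.3% and 22.5% of all tested genes, Cdt1 in YFP- cells (adjusted p = 0.0432) and Cdk2 in YFP+ cells (adjusted p = 0.00588). The replicate number did not pair naïve with TEM libraries in YFP+ cells (r from -0.0199 to 0.204 between same-numbered libraries, after group means were removed). The calls that this fit added in YFP+ cells carry that limit. In RNA of sorted pools, more cells in cycle and more transcript per cycling cell cannot be told apart. With 3 libraries a side, the smallest p of an exact two-sided permutation test is 0.1, and the calls depend on limma's pooling of the spread over the 4 groups and across genes.

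Markers of other cells moved in the same comparison. Regulatory T cell markers, of which 5 of 5 were called higher in both fractions, summed to 7723 to 9616 normalized counts in YFP- naïve and 51013 to 69174 in YFP- TEM libraries, and to 5346 to 6110.5 in YFP+ naïve and 42439 to 47987 in YFP+ TEM libraries. Plasmacytoid dendritic cell markers, with 5 and 3 of 5 called higher in YFP- and YFP+ cells, summed to 2797 to 2998 in YFP- naïve and 9270 to 16760 in YFP- TEM libraries (2581 to 3566 and 3344 to 4184 in YFP+ cells). Macrophage and neutrophil markers, with 4 and 1 of 6 called higher and 0 and 1 called lower, summed to 294 to 773 and 6021 to 11602 (381 to 3312 and 1608 to 3305 in YFP+ cells). The 1 called lower was Itgam, with 292, 401 and 253 in YFP+ naïve and 213, 90.1 and 227 in YFP+ TEM libraries. The part of all these other cells in the difference of the 45 genes was not tested.

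**Figure D2:**
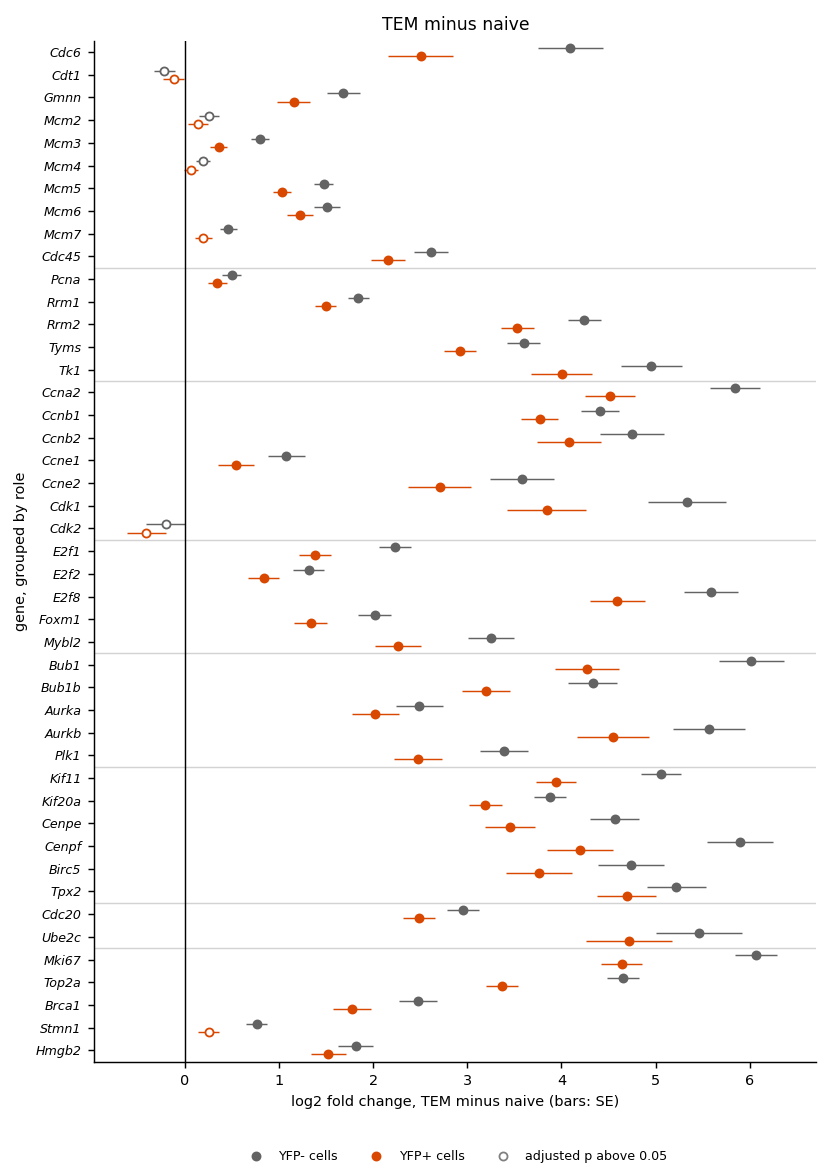
Log2 fold change of TEM minus naïve cells (horizontal axis, with SE) for the 45 genes in YFP- cells (grey) and YFP+ cells (orange), with open symbols for an adjusted p above 0.05. The points run from -0.22 (Cdt1) to 6.07 (Mki67) in YFP- cells and from -0.41 (Cdk2) to 4.72 (Ube2c) in YFP+ cells.

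The size of the difference followed the naïve level. The 10 members of highest naïve level per kilobase had log2 fold changes from -0.22 to 1.82 in YFP- cells (median 0.63), and the other 35 from -0.21 to 6.07 (median 4.24). A fold change contains the naïve level it is set against, so this is a description of the values and not a separate result.

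Origin licensing and helicase genes showed the smallest differences of the 8 roles, with a median log2 fold change of 1.14 in YFP- and 0.69 in YFP+ cells, and 7 and 6 of 10 called higher. Mcm6, an Mcm helicase subunit, had 3816, 3171 and 3306 normalized counts in YFP- naïve, 4186, 3205 and 3329.8 in YFP+ naïve, 9075, 11179.5 and 9052 in YFP- TEM and 7865, 9919.7 and 7285 in YFP+ TEM libraries. All 6 TEM libraries lay above all 6 naïve libraries, a log2 change of 1.51 (SE 0.14, adjusted p = 2.20e-06) in YFP- and 1.22 (SE 0.14, adjusted p = 1.84e-05) in YFP+ cells. Mcm4 had 5309.7, 5477 and 5290.0 in YFP- naïve, 5582, 5553 and 5045 in YFP+ naïve, 5759.5, 6445 and 6168 in YFP- TEM and 5628, 5241 and 6079 in YFP+ TEM libraries, and Mcm2 had 3939, 3369.6 and 4032, 4180.0, 3256 and 4092, 4179, 4674 and 4657 and 4183, 3999 and 4448 in the same order. Neither passed the test, with log2 fold changes of 0.19 (adjusted p = 0.058) and 0.26 (adjusted p = 0.0641) in YFP- cells and 0.07 and 0.14 in YFP+ cells. With the replicate number in the fit both were called higher in YFP- cells (adjusted p = 0.0386 and 0.0212). The differences between subunits of the hexamer were not tested. Mcm4 was the most and Mcm5 the least abundant of the 6 per kilobase in naïve cells, a ratio of 3.23 in YFP- cells, and in TEM cells Mcm6 was the most and Mcm2 the least abundant, a ratio of 3.23 again in YFP- and 2.96 in YFP+ cells. Mcm5 had 1903, 1693 and 1947, 2008, 1759 and 1935, 4489, 5321 and 5633 and 3772, 3724 and 4143, and Mcm3 had 3103, 2672 and 2843, 3314, 2738 and 3092, 4624, 5009 and 5356 and 3936, 3667 and 4079.7, again in the order YFP- naïve, YFP+ naïve, YFP- TEM and YFP+ TEM. Mcm5 rose by 1.47 (SE 0.10) and Mcm3 by 0.80 (SE 0.09) in YFP- cells, and by 1.03 and 0.36 in YFP+ cells. Mcm7 had 3389.7, 3427 and 3570.1, 3213, 3034 and 3514, 4193, 4888 and 5259 and 3592, 3709 and 3863, and it rose by 0.46 (SE 0.09, adjusted p = 9.63e-04) in YFP- cells but was not called in YFP+ cells (log2 fold change 0.20, adjusted p = 0.1). Its span in RefSeq also holds Mir25, Mir93, Mir106b and part of Ap4m1.

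Among the factors around the helicase, Cdc45, which travels with the helicase at the fork, had 78.3, 90.2 and 85.2 normalized counts in YFP- naïve, 74.2, 72.8 and 63.2 in YFP+ naïve, 455, 539 and 585 in YFP- TEM and 295, 289 and 367 in YFP+ TEM libraries. It rose by 2.62 (SE 0.18, adjusted p = 2.17e-07) in YFP- cells and by 2.16 in YFP+ cells, and its span overlaps Ufd1. Cdc6, the loader, had 19.6 to 47.7 in YFP- naïve and 427 to 664 in YFP- TEM libraries, a log2 change of 4.09 (SE 0.35, adjusted p = 1.10e-06). Cdt1, the other loader, had 2117 to 2795 in naïve and 2084 to 2374 in TEM libraries, with overlapping values in both YFP fractions. Gmnn, which encodes geminin, the inhibitor of Cdt1, went from 152 to 229 in YFP- naïve to 564 to 706 in YFP- TEM libraries, a log2 change of 1.68 (SE 0.18, adjusted p = 6.19e-06).

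Nucleotide supply and clamp genes were called higher in TEM in 5 of 5 cases in both fractions. Pcna, the sliding clamp, had 4364, 4248 and 4674 normalized counts in YFP- naïve, 4592, 3734 and 4507 in YFP+ naïve, 5466, 6727 and 6627 in YFP- TEM and 5440.3, 5316 and 5481 in YFP+ TEM libraries, and its log2 fold changes were the smallest of the 5 (0.50, SE 0.10, in YFP- and 0.35 in YFP+ cells). The subunits of ribonucleotide reductase, which makes deoxynucleotides, differed from each other in size of change. Rrm1, the large subunit, had 1471, 1226 and 1496, 1448, 1169.8 and 1495, 4494, 5142 and 5376 and 3773, 3724 and 4039 in the same order, and Rrm2, the small subunit, had 144, 155 and 182, 146, 189 and 161, 2532, 3059 and 3614 and 1702, 1704 and 2412. Rrm1 rose by 1.84 (SE 0.11) and Rrm2 by 4.24 (SE 0.18) in YFP- cells, and by 1.49 and 3.53 in YFP+ cells. The difference between the subunits was not tested. Tyms (thymidylate synthase) and Tk1 (thymidine kinase) rose by 3.60 and 4.95 in YFP- and by 2.92 and 4.0 in YFP+ cells, and RefSeq lists pseudogenes of Pcna and Tyms.

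Of the cyclins and their kinases, 6 of 7 were called higher in TEM in both fractions. Ccna2, the cyclin of DNA synthesis and early mitosis, had 31.1, 58.4 and 43.8 normalized counts in YFP- naïve, 55.7, 93.5 and 47.4 in YFP+ naïve, 2207, 2486 and 2945 in YFP- TEM and 1328, 1351 and 1725 in YFP+ TEM libraries, a log2 change of 5.84 (SE 0.27, adjusted p = 8.43e-09) in YFP- and 4.52 in YFP+ cells. Ccnb2, a mitotic cyclin, had 27.6, 57.3 and 51.8, 29.7, 73.8 and 32.6, 1028, 1219 and 1359 and 692, 650.3 and 826 in the same order, and rose by 4.75 and 4.08. The partner kinases parted. Cdk1, the mitotic kinase, rose by 5.33 (SE 0.42, adjusted p = 6.14e-07) in YFP- and 3.84 in YFP+ cells, from 9.20 to 30.8 normalized counts in YFP- naïve to 669 to 1047 in YFP- TEM libraries. Cdk2, the kinase of DNA synthesis, had 1069, 1527 and 1365 in YFP- naïve, 932, 1394 and 1420.3 in YFP+ naïve, 985, 1095 and 1346 in YFP- TEM and 739, 924 and 1148 in YFP+ TEM libraries, with groups that overlap and log2 fold changes of -0.21 (adjusted p = 0.434) and -0.41 (adjusted p = 0.129). Its span overlaps Pmel. Ccnb1 rose by 4.41 and 3.77, and the cyclins that open DNA synthesis rose by 1.08 and 0.55 for Ccne1 and 3.58 and 2.71 for Ccne2 in YFP- and YFP+ cells. RefSeq lists pseudogenes of Ccnb1 and Ccnb2.

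All 5 transcription factors were called higher in TEM in both fractions, by amounts that differed widely. E2f2, an activating E2F, was present in naïve cells at 931, 1304 and 1226 normalized counts in YFP- and 1038, 1338 and 1155 in YFP+ libraries, and had 2409, 2920.5 and 3246 in YFP- TEM and 1837, 1946 and 2564 in YFP+ TEM libraries, a log2 change of 1.31 (SE 0.17, adjusted p = 3.07e-05) and 0.84. E2f1, also an activator, had 175, 157 and 139, 145, 142 and 186, 654, 736 and 836 and 431, 364 and 438 in the same order, and rose by 2.23 and 1.38. E2f8, a repressing E2F made late in DNA synthesis, had 21.9, 19.1 and 20.7, 16.1, 32.5 and 21.4, 759, 1062 and 1380.3 and 469, 566 and 674, and rose by 5.59 (SE 0.29, adjusted p = 2.10e-08) and 4.59. Foxm1 had 416, 320.4 and 399.7, 423, 338 and 364, 1366, 1405 and 1851 and 819.9, 862 and 1194, and rose by 2.02 (SE 0.17) and 1.34. Mybl2 rose by 3.25 and 2.26. E2f1 overlaps Necab3 and Foxm1 overlaps Tex52 in RefSeq.

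Mitotic kinases and checkpoint genes were all 5 called higher in TEM in both fractions, with a median log2 fold change of 4.33 in YFP- and 3.20 in YFP+ cells. Bub1b, a checkpoint protein of unattached kinetochores, had 105, 90.2 and 87.6 normalized counts in YFP- naïve, 110.1, 146 and 67.0 in YFP+ naïve, 1745, 1661 and 2398 in YFP- TEM and 838, 861 and 1182 in YFP+ TEM libraries, and rose by 4.33 (SE 0.26, adjusted p = 6.43e-08) in YFP- and 3.20 in YFP+ cells. Plk1, a kinase of mitotic entry, had 112, 160.2 and 108, 97.7, 198 and 128, 1102, 1371 and 1512 and 614, 770.5 and 914, and rose by 3.39 and 2.47. Aurkb, the kinase of the chromosomal passenger complex, had 11.5, 23.3 and 27.6, 13.6, 35.4 and 18.6, 756, 950.0 and 1289 and 446, 489.8 and 604, and rose by 5.57 and 4.55. In each of these genes the lowest TEM library exceeded the highest naïve library. Bub1, a checkpoint kinase, rose by 6.02 (SE 0.34, adjusted p = 4.91e-08) from 9.20 to 12.7 normalized counts in YFP- naïve libraries, and Aurka, the centrosome kinase, whose span overlaps Cstf1, by 2.49.

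Spindle, kinetochore and passenger genes had the largest summed difference of the 8 roles, 29.0-fold between the mean summed counts of TEM and naïve libraries in YFP- cells and 14.0-fold in YFP+ cells, with 6 of 6 called in both. Kif11, the motor that pushes spindle poles apart, had 81.8, 93.4 and 61.1 normalized counts in YFP- naïve, 81.6, 121 and 96.7 in YFP+ naïve, 2255, 2437 and 3273 in YFP- TEM and 1286, 1511 and 1847 in YFP+ TEM libraries, and rose by 5.06 (SE 0.21, adjusted p = 5.21e-09) in YFP- and 3.94 in YFP+ cells. Tpx2, which activates Aurora A on the spindle, had 61.0, 36.1 and 44.9, 22.3, 59.0 and 40.9, 1458, 1749.6 and 2153 and 879.6, 1024 and 1118, and Cenpf had 23.0, 20.2 and 31.1, 45.8, 77.7 and 24.2, 1287, 1350.2 and 1992 and 731, 809 and 966. They rose by 5.22 and 5.90 in YFP- cells, and YFP+ naïve replicate 2 was the highest naïve library for Cenpf. Kif20a, a motor of cytokinesis, had 81.8, 90.2 and 97.9, 85.3, 86.6 and 91.2, 1111, 1264 and 1689 and 744, 763 and 934, and rose by 3.88 (SE 0.17) and 3.19. It overlaps Brd8 and Cdc23. Cenpe, a kinetochore motor, and Birc5, the passenger protein survivin, rose by 4.57 and 4.74.

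The genes of mitotic exit, Cdc20 (an activator of the anaphase-promoting complex) and Ube2c (its ubiquitin-conjugating enzyme), both rose. Cdc20, which overlaps Elovl1, had 160.1, 137 and 146 normalized counts in YFP- naïve, 156, 123 and 140.4 in YFP+ naïve, 898, 1212 and 1389.5 in YFP- TEM and 740.1, 775 and 844 in YFP+ TEM libraries, and Ube2c had 15, 36.1 and 43.8, 19.8, 55.1 and 14.9, 1028, 1373 and 1616 and 643, 652 and 804. The log2 fold changes in YFP- cells were 2.95 (SE 0.17, adjusted p = 4.91e-08) and 5.47 (SE 0.46, adjusted p = 9.98e-07). The naïve level of Ube2c was low, and its SE was the largest of the 45.

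The remaining genes act on chromatin, repair or microtubules. Mki67, which encodes the proliferation marker Ki-67 that coats mitotic chromosomes, had 238, 188 and 168 normalized counts in YFP- naïve, 278, 453 and 292 in YFP+ naïve, 11643, 11483 and 17284 in YFP- TEM and 7785, 7145 and 10322 in YFP+ TEM libraries. Its log2 change of 6.07 (SE 0.22, adjusted p = 2.00e-09) in YFP- cells was the largest of the 45, and it was 4.64 (SE 0.22, adjusted p = 1.44e-08) in YFP+ cells. Top2a, the topoisomerase that untangles sister chromatids, had 344, 468 and 347, 523, 638 and 465, 8330.0, 9110.5 and 11897 and 5258, 5077 and 6462 in the same order, and rose by 4.66 (SE 0.17, adjusted p = 2.00e-09) and 3.37. Hmgb2, a chromatin protein also made outside the cycle, had 4720.0, 3503 and 2799, 4772, 3615 and 2919.6, 12246, 12519 and 13164 and 11599, 9723 and 10609.9, and rose by 1.82 and 1.52. Stmn1, which encodes the microtubule destabilizer stathmin, had 1834, 1766 and 1801, 1614, 1366 and 1366, 2550.0, 3195 and 3484 and 1706, 1651 and 1803. It rose by 0.76 (SE 0.11, adjusted p = 1.02e-04) in YFP- cells and was not called in YFP+ cells, at 0.25 (SE 0.11, adjusted p = 0.0905). Brca1, a repair gene, rose by 2.48 and 1.77.

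Within TEM cells the members were lower in the YFP+ than in the YFP- fraction. The log2 fold change of YFP+ minus YFP- was below 0 for 44 of the 45 genes (Cdt1 was at 0.02), and its median was -0.72, a level 1.65-fold lower, where the median over all tested genes was -0.01 and 52.7% of them were below 0. The 3 YFP+ libraries lay entirely below the 3 YFP- libraries for 38 of the 45 genes, against 14.3% of all tested genes. The exceptions were Cdt1, Mcm2, Mcm4, Mcm6, Pcna, Cdk2 and E2f2. Of the 45 genes 12 were called lower, against 4.67% of all tested genes, and 0 were called higher, against 2.3% (0 also unadjusted, with edgeR and with DESeq2). Unadjusted, 33 passed 0.05 as lower, against 10.4% of all tested genes. With the replicate number in the fit, which the data pair between YFP fractions, 24 genes were called lower, against 6.77% of all tested genes, and these included all 12.

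The 12 called genes were Mcm3, Mcm5, Mcm7 and Cdc45 of the helicase, Rrm2, E2f1, Foxm1, Bub1b, Kif11, Kif20a, Top2a and Stmn1, and their values in every library are those given above with each role. Stmn1 had the smallest p: its YFP- TEM libraries held 2550.0 to 3484 normalized counts and its YFP+ TEM libraries 1651 to 1803, with no overlap, a log2 change of -0.83 (SE 0.11, adjusted p = 7.49e-04). These YFP+ TEM libraries lay above the YFP+ naïve libraries (1366 to 1614), and the YFP- naïve libraries held 1766 to 1834. E2f1 fell by 0.85 (SE 0.17, adjusted p = 0.0075) and Top2a by 0.80 (SE 0.17, adjusted p = 0.0112), both with groups that did not overlap. Bub1b had the largest difference of the 12, -1.01 (SE 0.26, adjusted p = 0.0321), and was the only one of them with a level more than 2-fold lower. The helicase genes fell by less, 0.36 for Mcm3, 0.40 for Mcm5 and 0.36 for Mcm7 (SE 0.09, 0.10 and 0.09), and Cdc45 fell by 0.73 (SE 0.18, adjusted p = 0.0284). Rrm2, Foxm1, Kif11 and Kif20a fell by 0.67, 0.69, 0.77 and 0.72, with adjusted p of 0.0389, 0.0307, 0.0493 and 0.0237.

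**Figure D3:**
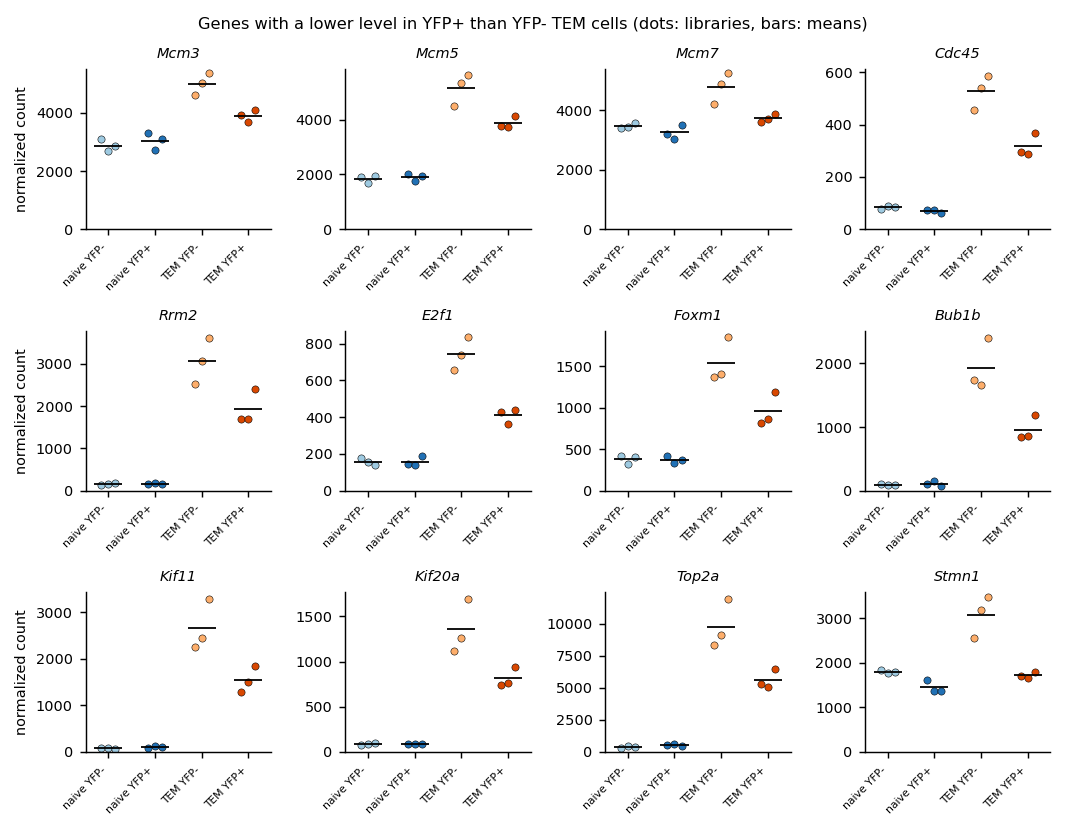
Normalized counts (vertical axes, from 0) of the 12 genes called lower in YFP+ than in YFP- TEM cells, with a dot for each library and a bar at the mean of its 3 libraries. In every panel the 3 YFP+ TEM dots lie below the 3 YFP- TEM dots, and in Stmn1 they lie above the YFP+ naïve dots.

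Of the other 33 genes, several had larger but noisier differences. Bub1 was at -1.14 (SE 0.34, adjusted p = 0.0736), Aurkb at -0.94 (SE 0.38, adjusted p = 0.214), Ube2c at -0.92 (SE 0.46, adjusted p = 0.348) and Cdk1 at -0.88 (SE 0.42, adjusted p = 0.314). Mki67 was at -0.67 (SE 0.22, adjusted p = 0.102) although its groups did not overlap. The replicate number in the fit added Gmnn, Rrm1, Tyms, Ccna2, Ccnb1, E2f2, E2f8, Mybl2, Bub1, Aurka, Plk1 and Cdc20 to the called genes, so that cyclins and mitotic exit were then represented, with adjusted p from 0.00365 for Aurka to 0.0499 for Cdc20. By role the median log2 fold change was smallest in size for licensing and helicase genes (-0.36) and largest for mitotic kinases (-0.94), with spindle genes at -0.83, transcription factors at -0.74, mitotic exit at -0.73, chromatin and repair genes at -0.67, cyclins at -0.63 and nucleotide genes at -0.51. Differences between roles were not tested. The summed counts of the 45 genes were 112643, 126805 and 143486 in YFP- TEM libraries and 87976, 88004 and 98886 in YFP+ TEM libraries, a ratio of means of 1.39.

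**Figure D4:**
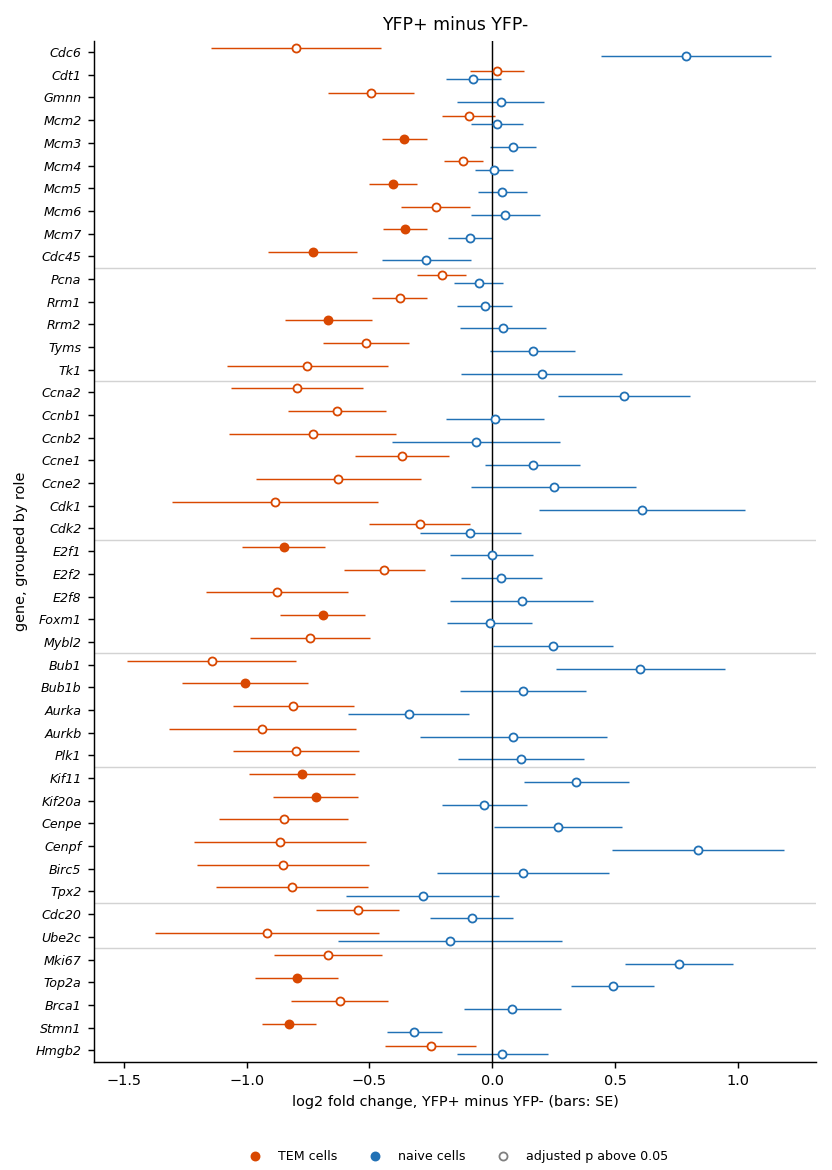
Log2 fold change of YFP+ minus YFP- (horizontal axis, with SE) for the 45 genes in TEM cells (orange) and naïve cells (blue), with open symbols for an adjusted p above 0.05. The TEM points lie left of 0 for every gene but Cdt1, 12 of them filled, and the naïve points lie on both sides of 0, all of them open.

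The count of 12 depended on single libraries. It was 1 without YFP- TEM replicate 3 (Stmn1 alone), 3 without YFP- TEM replicate 2, YFP+ TEM replicate 1 or YFP+ TEM replicate 2 (E2f1, Top2a and Stmn1 in each), and 18 without YFP+ naïve replicate 2. Over all tested genes the lower calls, 728 in the main fit, were 414, 666, 570, 598 and 844 in the same order. In the 12 fits without 1 library the median log2 fold change of the 45 genes stayed between -0.55 and -0.83, and 44 or 45 genes were below 0. YFP- TEM replicate 3 was the highest of its group for 37 of the 45 genes and YFP+ TEM replicate 3 was the highest of its group for 40. Stmn1 kept its call in each of the 25 alternatives that set no minimum fold change, with adjusted p from 6.89e-10 to 0.00493, while E2f1 and Top2a lost theirs in 1 of these each, both without YFP- TEM replicate 3 (adjusted p = 0.0516 and 0.0625).

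RNA of other cells also differed between the TEM fractions. The plasmacytoid dendritic cell markers Siglech, Bst2, Tcf4, Irf8 and Spib were all 5 called lower in YFP+ cells, and their sum was 9270 to 16760 normalized counts in YFP- and 3344 to 4184 in YFP+ TEM libraries. Siglech, the defining one of these, had 3367, 1412 and 3263 in YFP- and 118, 26.9 and 55.1 in YFP+ TEM libraries and at most 16.7 in naïve libraries. Macrophage and neutrophil markers, of which 2 of 6 were called lower and 0 higher, summed to 6021 to 11602 in YFP- and 1608 to 3305 in YFP+ TEM libraries. The neutrophil gene S100a8 lay the other way, with 0, 1.5 and 0 in YFP- and 30.3, 7.2 and 48.5 in YFP+ TEM libraries. So did S100a9, with 0, 4.4 and 0 in YFP- and 41.5, 16.6 and 89.4 in YFP+ TEM libraries. Neither was called. Regulatory T cell markers (Foxp3, Il2ra, Ikzf2, Ctla4 and Tnfrsf18) summed to 51013 to 69174 in YFP- and 42439 to 47987 in YFP+ TEM libraries, with 1 of 5 called lower. This was Foxp3, with 19208, 11161 and 17909 in YFP- and 9695, 6198 and 10484 in YFP+ TEM libraries. Il2ra lay the other way, with 5038, 3824 and 6136 in YFP- and 9016, 5136 and 9196 in YFP+ TEM libraries, a log2 change of 0.62 that was called only with the replicate number in the fit (adjusted p = 0.225 without it and 0.00293 with it). Immature thymocyte markers summed to 1149 to 1576 and 844 to 1026, most of it Cd1d1. Among them Dntt was called lower, with 449, 211 and 408 in YFP- and 33.4, 7.2 and 8.6 in YFP+ TEM libraries, and Rag1 was at no more than 5.74 in any library. The sums for CD8 and NK cells (1472 to 2325 over all TEM libraries), B and plasma cells (268 to 1089) and erythroid cells (67.2 to 2166) overlapped between the TEM fractions, while some single markers differed. Cd8a (470.0, 160.1 and 483 in YFP- and 58.6, 13.5 and 61.8 in YFP+ TEM libraries) and Cd8b1 were called lower. From the same CD8 and NK cell list, Klrb1c (159.9, 153 and 149 and 1403, 869.9 and 1639.7) and Ncr1 (0 in each YFP- library and 6.2 to 56.1 in YFP+ libraries) were called higher. Which cells carried them was not tested. The B cell gene Cd79a was also called higher, while 0 of 5 erythroid markers were called. Of the YFP- TEM libraries, replicate 3 had the highest plasmacytoid sum (16760), macrophage sum (11602) and sum of the 45 genes (143486), and replicate 2 had the lowest of both marker sums (9270 and 6021) and the middle sum of the 45 genes (126805). The part of these cells in the difference of the 45 genes was not tested, and a smaller share of cycling cells and less transcript per cycling cell cannot be told apart here either.

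**Figure D5:**
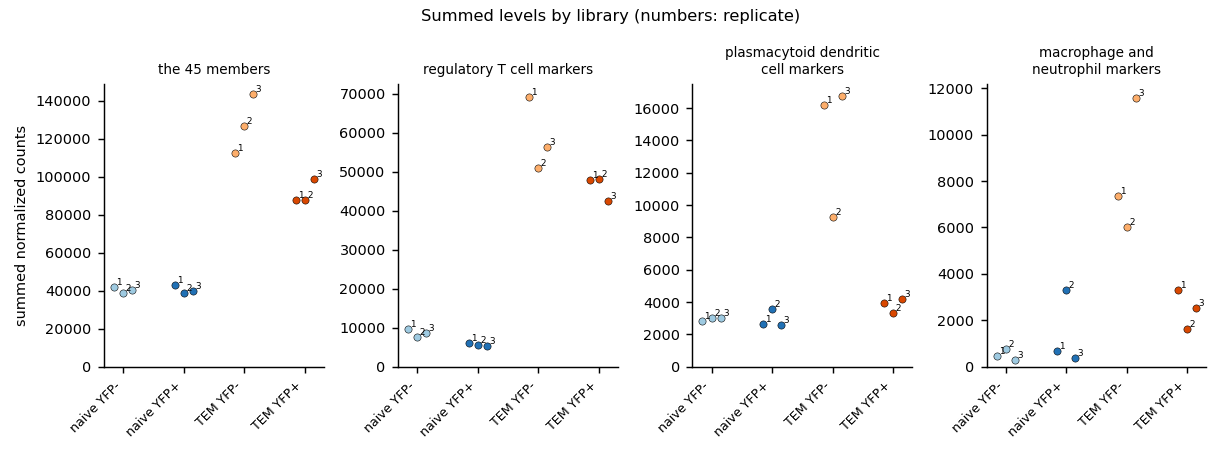
Summed normalized counts (vertical axes, from 0) of the 45 genes and of the markers of regulatory T cells, plasmacytoid dendritic cells and macrophages and neutrophils, with a dot for each library numbered by replicate. In each panel the 3 YFP- TEM libraries lie above the 3 YFP+ TEM libraries.

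In naïve cells no member was called between YFP+ and YFP- cells (0 of 45 in limma, with a smallest adjusted p of 1), against 0.00642% of all tested genes, which is 1 gene, and 0 of 45 were called with edgeR, DESeq2 or the replicate number in the fit. Unadjusted, 5 genes passed 0.05, against 3.32% of all tested genes. They were Mki67 (0.76, SE 0.22), Top2a (0.49, SE 0.17), Cdc6 (0.79, SE 0.35) and Cenpf (0.84, SE 0.35) above 0 and Stmn1 (-0.32, SE 0.11) below. The 3 YFP+ libraries lay entirely above the YFP- libraries for 1 gene, Mki67, against 3.16% of all tested genes, and entirely below for 2 genes, Cdc45 and Stmn1, against 2.21%. The median over the 45 genes was 0.04, and the summed counts were 39006 to 41786 in YFP- and 38645 to 42920 in YFP+ naïve libraries. For Mki67, Top2a, Cdc6 and Cenpf the highest YFP+ value came from replicate 2, the library with RNA of other cells. Without it the log2 differences were 0.54 for Mki67, 0.37 for Top2a, 0.55 for Cdc6, 0.44 for Cenpf and -0.28 for Stmn1, and 2 of the 45 genes, Mki67 and Stmn1, passed 0.05 unadjusted, against 3.43% of all tested genes.

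The difference between the fractions was itself compared between TEM and naïve cells. This interaction was below 0 for 44 of the 45 genes, with a median of -0.68. Over all tested genes 52.4% were below 0 and the median was -0.01. Of the 45 genes 2 were called, a share near the 3.55% of all tested genes called in either direction. These were Mki67, with -0.67 in TEM and 0.76 in naïve cells and a difference of -1.43 (SE 0.31, adjusted p = 0.0238), and Top2a, with -0.80 and 0.49 and a difference of -1.29 (SE 0.24, adjusted p = 0.0109). Unadjusted, 23 genes reached a p of 0.05 or less, all below 0, against 11.7% of all tested genes. With the replicate number in the fit 9 genes were called, against 5.71% of all tested genes, and they added Cdc6, Mcm3, Mcm5, Rrm2, Ccna2, Mybl2 and Kif11. That fit shares its replicate effects over the 4 groups, although the numbers did not pair YFP+ naïve with YFP+ TEM libraries. The interaction calls that it added, here and below, carry that limit. Without YFP+ naïve replicate 2 the differences were -1.21 for Mki67 (adjusted p = 0.039) and -1.16 for Top2a (adjusted p = 0.0212). Mki67 lost its call without YFP- naïve replicate 2 or 3, YFP- TEM replicate 3 or YFP+ TEM replicate 1 or 2 (adjusted p from 0.053 to 0.0695), and Top2a kept its call in each of the 12 fits without 1 library. The comparisons of TEM with naïve cells and of YFP+ with YFP- cells share libraries, so their values are not independent.

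Around the 45 genes, 100 further genes of the same pathways were examined in 9 lists. In YFP- cells 64 were called higher and 12 lower in TEM than in naïve cells, where 29.9% and 19.9% of all tested genes were, and in YFP+ cells 60 and 10, where 24.7% and 16.7% were. The share called lower was below that of all genes in both. Between TEM fractions 1 was called higher and 9 lower in YFP+ cells, against 2.3% and 4.67% of all tested genes. With the replicate number in the fit these were 4 and 32, against 5.22% and 6.77%. In naïve cells 0 were called with or without the replicate number. An interaction below 0 was called for 5 genes and one above 0 for 0, against 3.55% of all tested genes in either direction. With the replicate number 11 were called below and 1 above 0, against 5.71% of all tested genes in either direction. All 12 kinetochore, centromere and checkpoint genes rose in TEM in both fractions, with Nuf2 the largest in YFP- cells (5.96, and 3.95 in YFP+ cells), and so did 14 of 15 genes of the spindle, cytokinesis and condensin, led by Kif15 (5.66 and 5.15), while Smc4 fell by 0.62 in YFP- cells. Of 17 polymerase, clamp loader and Okazaki fragment genes 13 rose and 1 fell in YFP- cells (11 and 1 in YFP+ cells), with subunits of polymerase epsilon on opposite sides, Pole at 2.15 and Pole2 at -1.26. Of 13 genes of the origin complex, GINS and the fork 6 rose and 2 fell (5 and 1 in YFP+ cells), with Mcm10 at 5.78 and Orc5 at -0.33.

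The remaining lists hold upstream regulators, and differences between lists were not tested. Among D cyclins and their kinases 3 of 5 rose and 1 fell in both fractions. Ccnd1, a D cyclin less used in lymphocytes than Ccnd2 and Ccnd3, had 204, 152 and 179.7 normalized counts in YFP- naïve, 179, 264 and 114 in YFP+ naïve, 3621, 3148 and 8084 in YFP- TEM and 451, 215 and 539.9 in YFP+ TEM libraries. It was lower in YFP+ than in YFP- TEM cells by more than any of the 45 genes, with -3.59 (SE 0.41, adjusted p = 3.07e-04) and an interaction of -3.57 (SE 0.58, adjusted p = 0.00581). It was highest in YFP- TEM replicate 3. The macrophage and plasmacytoid marker sums and 37 of the 45 genes were also highest of their group there. The part of other cells in the difference of Ccnd1 was not tested. Ccnd3, the other D cyclin called, fell by 0.58 in YFP- TEM cells. Of 7 inhibitors of cyclin-dependent kinases 4 rose and 1 fell in both fractions, Cdkn2a at 5.81 from 0 reads in every YFP- naïve library and Cdkn2d at -1.05, the former a fitted value that depends on the added count of 1. Ccnd2 and Cdkn1b, the inhibitor p27 of resting cells, were not called (-0.07 and -0.08) and are named after their values were seen. Of 14 pocket proteins and further E2F genes 6 rose and 1 fell in both fractions, led by E2f7 (5.15), a repressing E2F like E2f8, with Lin54 at -0.50. Rbl2, which encodes the pocket protein p130 of resting cells, was the 1 gene of the 100 called higher in YFP+ TEM cells, by 0.56 (SE 0.13, adjusted p = 0.0153), and with the replicate number in the fit Ccnd3, Btg1 and Foxo3 were called higher as well. Of 9 phosphatases and checkpoint kinases 5 rose and 1 fell in YFP- cells (4 and 1 in YFP+ cells), with Cdc25c at 5.99 and Atm at -0.50, and of 8 antiproliferative genes linked to quiescence 1 rose and 4 fell (1 and 3 in YFP+ cells), with Tob2 at 0.27 and Foxp1 at -1.29. Cdc25c had 1.2, 0 and 3.5 normalized counts in YFP- naïve libraries, so its value also depends on the added count of 1.

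The further pathway genes called lower in YFP+ TEM cells were Mcm10 (-1.12) and Gins3 (-0.61) of the fork, Pole (-0.55) and Prim1 (-0.46) of the polymerases, Cdca8 (-0.79) of the passenger complex, Kif23 (-1.19) of cytokinesis, and the condensin genes Ncapd2 (-0.47) and Ncaph (-0.86). Mcm10, Cdca8, Ncapd2 and Racgap1 had called interactions of -2.07, -1.26, -0.53 and -0.90.

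Some limits of the counting touch single members. The sources used here do not give the strand setting of the counting, and 16 of the 45 genes overlap another RefSeq gene, so part of their reads may come from it. Of the 12 genes called lower in YFP+ TEM cells, Mcm7, Cdc45, E2f1, Foxm1, Kif11, Kif20a and Top2a are among these 16, and Mcm3, Mcm5, Rrm2, Bub1b and Stmn1 are not. RefSeq names pseudogenes for 4 members, Pcna, Tyms, Ccnb1 and Ccnb2, whose reads could be split.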

How the data were processed

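Total RNA of sorted CD4+ T cells was sequenced with a stranded kit in 12 libraries, 3 for each of 4 groups. According to the study's methods and the labels, the authors mapped reads to mm10 with the DRAGEN pipeline, counted them on genes with Rsubread and used DESeq2; versions, the annotation and the strand setting of the counting are not given in the sources used here. The deposited values are a signal, read counts on genes scaled by DESeq2 size factors. Undoing this scaling gave whole reads for 100% of the values (within 0.01 of a read), although in YFP+ TEM replicate 1 the size factor (0.989) lay near 1 and recovery, on which the edgeR and DESeq2 fits rest, is less certain. There were 0 unused columns.

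A gene needed 5 normalized counts or more in 3 or more libraries, which 15587 of 17523 met. The log2(value + 1) levels were fitted by limma 3.58.1 under R 4.3.3 as 4 group means, eBayes with a trend and 8 residual degrees of freedom, with p-values adjusted by Benjamini-Hochberg and calls at 0.05. edgeR 4.0.16 and DESeq2 1.42.0 on the recovered reads were alternatives, and so were other pseudocounts (0.1 and 5), filters, scalings, minimum fold changes, the replicate number as a block and leaving out each library. The limma and edgeR scripts were tested on simulated data. Symbols, positions and promoters came from RefSeq (GRCm38.p6) and exon lengths from GENCODE M21 (45 of 45 members). The members and all lists were chosen with earlier results of these data known, and 774 genes without a RefSeq symbol were tested but not named.

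Values in every library are given for the 3 members of each role with the highest mean count and for members called between YFP fractions or in the interaction. Of each pathway list the called gene of largest change in each direction of TEM minus naïve YFP- cells and genes called between fractions are named. Of the 10 marker lists (50 genes, 47 of them analysed here) 9 are given by sums and 1 is not reported here. Promoter windows are those of the members with the largest change for each word.

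Replicate numbers are shared by the groups. After group means were removed, same-numbered libraries of YFP+ and YFP- cells correlated with r from 0.180 to 0.491, and naïve and TEM libraries from 0.137 to 0.232 in YFP- but -0.0199 to 0.204 in YFP+ cells, so the numbers pair the YFP fractions and the YFP- naïve and TEM libraries but not the YFP+ naïve and TEM libraries, and the pairing comes from the data and not from the labels. Within groups the chi-square between libraries, divided by its degrees of freedom, was 36.5 to 80.3, far above counting noise. The study's methods give 3 mice, but no source used here ties the libraries to them, so p-values measure the spread between these samples.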

Additional observations from a re-analysis of the deposited data

Results flagged for a closer look

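For 2 of the 45 genes the difference between YFP+ and YFP- cells itself differed between TEM and naïve cells in limma. Of all tested genes, 3.55% had such a call in either direction, so the count of 2 of 45 is near the share of all genes. The log2 difference of differences was -1.43 for Mki67 (adjusted p = 0.0238) and -1.29 for Top2a (adjusted p = 0.0109), with 3 libraries in each group. Of 24 alternatives that set no minimum fold change, Mki67 lost its call in 6 and Top2a in 0. In both genes the 3 YFP+ TEM libraries lay below the 3 YFP- TEM libraries. In naïve cells the 3 YFP+ libraries lay above the YFP- libraries for Mki67, while for Top2a they overlapped. No group was large enough for a test of outlying libraries.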

How the results depend on the processing

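The 12 members called lower in YFP+ than YFP- TEM cells became 24 with the replicate block, 26 with only the 2 groups compared, 31 with DESeq2, 35 with DESeq2 and the block and 27 with edgeR and the block, but 5 without a variance trend, 1 when a 2-fold change was also required (Bub1b) and 0 when 4-fold was. Over all genes the lower calls, 728 in the main fit, moved as well. They were 1055 with the block, 946 with the 2 groups and 1019 with DESeq2. With the block they were 1313 in DESeq2 and 1005 in edgeR, and without the trend 655. The members called lower ranged from 1 to 18 when 1 library was left out, where those of all genes ranged from 414 to 844. With the block the members ranged from 7 to 31, a check chosen after seeing the data. edgeR on the recovered reads called 13, among them all 12, and over all genes 690 lower and 436 higher where limma called 728 and 359. The 2 called interactions became 5 under quantile normalization, 9 with the replicate block, 1 without a variance trend, 10 with DESeq2, 18 with DESeq2 and the block, 10 with edgeR and the block and 0 when a 4-fold change was also required, with a range of 1 to 5 when 1 library was left out and 1 to 11 with the block. In TEM against naïve cells 1 member was called lower in place of 0 in YFP- cells (Cdt1) under quantile normalization, the block, edgeR, DESeq2 with the block and edgeR with the block, and in YFP+ cells (Cdk2) under quantile normalization, the block, DESeq2 with the block and edgeR with the block. The range over fits without 1 library was 0 to 1 in each. Cdt1 changed sign between TEM fractions without YFP- TEM replicate 3 (-0.00626) or YFP+ TEM replicate 1 (-0.0259), within a range of -0.0259 to 0.0682 over fits without 1 library. The cause of these moves was not tested, except that leaving out a library removes samples. Of the single-gene values under alternatives 3262 kept their direction and side of the threshold, 128 passed it newly, 81 lost it and 2 reversed. Each library held at least 40974124 reads, and with 3 libraries per group a difference near the size of its SE could not be told from 0.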
